A study of Mus musculus with 8 samples.

Results

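Nrp1 and Nrp2 encode the neuropilins, 2 related cell-surface receptors, and their loci were examined for H3K27ac, a histone acetylation of active promoters and enhancers. The members were all peaks that overlapped a window on chromosome 1 from 62.65 to 62.95 Mb for Nrp2 or on chromosome 8 from 130.75 to 131.15 Mb for Nrp1, in mm9. These windows held 10 of 22731 peaks, and all 10 lay in the Nrp2 window. No peak overlapped the Nrp1 window. The loci were chosen by their measured difference in H3K27ac counts between Gata6 knockout and control organoids, so the values of that difference inside the windows are a description, with no test of their own. Every peak was nevertheless part of a fit over the whole table, and a peak is called here when its adjusted p in that fit was under 0.05.

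The organoids were mouse colon cancer organoids. The control group carried the genotype that the labels give as AKP, and the other group carried Gata6KO on the same AKP background, so AKP was shared by both groups. The labels record C57Bl6 for the recipient mice and give no age, time point, clone number, driver of the knockout or separate culture. H3K27ac was mapped by CUT&RUN, a method that cuts out the DNA around a chromatin mark with a nuclease held there by an antibody, and each group had 3 libraries. The H3K4me3 and IgG libraries of the control organoids were not analysed here, so no background was subtracted. The peaks carry no gene names, and no position of Gata6 or of a cell type marker was used, so neither the knockout nor the cell type was checked against the data.

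Neuropilins bind class 3 semaphorins, guidance factors first described in growing axons, and also members of the VEGF family of vascular growth factors. They have short tails inside the cell and work with partner receptors, the plexins for semaphorins and the VEGF receptors for VEGF. NRP1 is best known from arteries and as a partner of VEGFR2, NRP2 from veins and lymphatic vessels as a partner of VEGFR3, and both are also made by many carcinoma cells. GATA6, the factor removed in the knockout, binds DNA at sites with a GATA core and maintains epithelial identity in the gut and other endodermal organs.

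The DNA just before the start of each gene is shown because the windows of these genes differed in whether they held acetylated peaks, and because GATA6 recognises a short sequence. The 250 bases before the RefSeq start site are from GRCm38.p6, plus strand, at chr1:62703067-62703316 for Nrp2 and chr8:128358823-128359072 for Nrp1. They are printed 5′ to 3′ with each CpG in capitals.
Nrp2: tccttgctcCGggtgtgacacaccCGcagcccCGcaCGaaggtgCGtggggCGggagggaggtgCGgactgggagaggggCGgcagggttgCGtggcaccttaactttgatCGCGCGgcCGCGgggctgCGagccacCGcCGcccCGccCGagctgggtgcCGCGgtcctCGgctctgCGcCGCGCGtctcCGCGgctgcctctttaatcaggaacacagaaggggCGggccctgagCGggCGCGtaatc
Nrp1: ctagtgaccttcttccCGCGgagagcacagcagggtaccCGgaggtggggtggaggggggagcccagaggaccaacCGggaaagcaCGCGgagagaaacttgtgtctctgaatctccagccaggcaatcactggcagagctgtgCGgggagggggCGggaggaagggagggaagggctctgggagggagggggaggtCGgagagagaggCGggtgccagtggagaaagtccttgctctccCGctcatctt

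The Nrp2 stretch held 32 CpGs and the Nrp1 stretch 11, against a median of 6 over the 32851 RefSeq promoter entries cut to the same length. Their GC contents were 72.4% and 64.4%, against a median of 52.4%. The letters GATA, searched on both strands, were found 0 times in each, while 53.6% of all entries held them at least once. This says only that these letters are not in these 250 bases. The peaks are in mm9 and the promoters in GRCm38.p6, so no peak was placed on either promoter, and whether any of the 10 peaks holds the Nrp2 start site was not determined.

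The 10 Nrp2 peaks formed a compact group of 80.9 kb, from 62750547 to 62831426 on chromosome 1, of which 63.9% was covered by peaks. Gaps between neighbours ranged from 249 to 10440 bp, and 4 of the 9 gaps were under 1 kb. In the RefSeq gene order, Nrp2 stands between Pard3b, a gene of cell polarity, and Ino80d, a subunit of a chromatin remodelling complex. On the side of lower coordinates the next peak lay 2081 kb away, and on the other side 217.5 kb away, whereas the median gap between neighbouring peaks of the whole table was 9147 bp. The Nrp2 peaks were therefore an isolated island of peaks, and the edges of the window lay in the stretches without a peak to either side of it. Reads between peaks were not counted, so acetylation too low for a peak could not be measured there.

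In control organoids, acetylation at Nrp2 was broad and above the typical level. The peaks were 1538 to 11557 bp wide with a median of 4769 bp, against 2690 bp over all peaks, and 8 of 10 were wider than that general median. Levels are CPM, the reads of a peak relative to all reads in peaks of its library, scaled by TMM, a correction for differences in composition between libraries. The median control level of the 10 peaks was 67.3 CPM, against 27.9 CPM over all peaks, and 9 of 10 exceeded the general median. Divided by peak width, the density was 10.5 to 17.7 CPM per kb in control libraries, against a general median of 10.7, and 9 of the 10 peaks lay above it. These are levels of the mark at the locus and do not measure Nrp2 transcripts.

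Acetylation was lower in the knockout along the whole Nrp2 island. The sum over the 10 peaks was 689, 694 and 672 CPM in control replicates 1 to 3 and 471, 462 and 435 CPM in knockout replicates 1 to 3. The groups did not overlap: 200.5 CPM separated the lowest control from the highest knockout library, whereas the libraries spanned 22.3 CPM within the control and 36.3 CPM within the knockout group. The mean ratio of knockout to control was 0.666, a log2 ratio of -0.59, which left the locus 33.4% below control. In reads, the 10 peaks held 3564 to 4691 per control library and 2547 to 2713 per knockout library.

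Each of the 10 peaks was called lower in the knockout and 0 were called higher, by the quasi-likelihood test of edgeR over all peaks, adjusted after Benjamini and Hochberg. Among all 22731 peaks, 10.2% were called lower and 11.6% higher, and on chromosome 1 alone 7.62% of 1391 peaks were called lower. DESeq2 also called 10 of 10 lower, with 10.3% of all peaks called lower, and edgeR at an adjusted p under 0.01 called 9 of 10, with 6.50% of all peaks. Since this contrast was known when Nrp2 was chosen, nothing is read from the count. In 9 of the 10 peaks every knockout library lay below every control library, a separation found at 16.2% of all peaks. The median log2 fold change of the 10 was -0.63, against -0.01 over all peaks and 0.03 over chromosome 1. In the ranking of all fold changes from low to high, 10 of 10 lay within the first 10% and 7 within the first 5%.

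**Figure D1:**
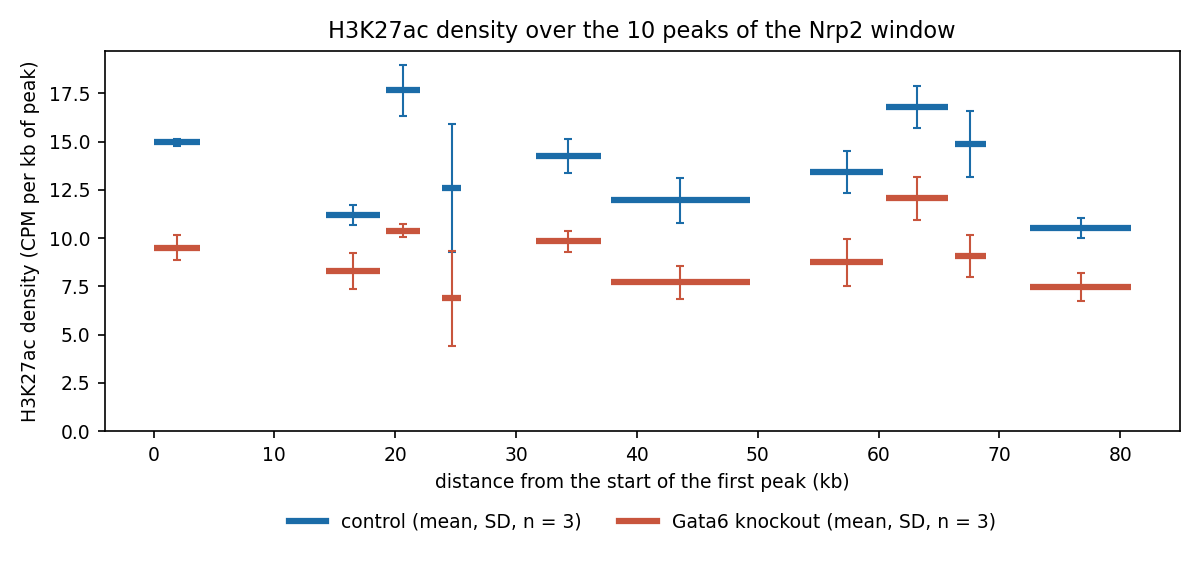
H3K27ac density (CPM per kb of peak) over the 10 peaks of the Nrp2 window, drawn to scale by distance in kb from the start of the first peak. Each horizontal bar spans a peak at its group mean and vertical bars are SD over 3 libraries; the knockout mean lies below the control mean at all 10 peaks, while the SD bars meet at the narrow peak with the lowest knockout density.

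The first peak, from 62750547 to 62754391, held 58.3, 57.6 and 56.9 CPM in the control libraries and 34.0, 38.6 and 37.2 CPM in the knockout libraries. Its control libraries were the most even of the locus, with a coefficient of variation of 1.23%. It fell by 36.5%, with a log2 fold change of -0.65 ± 0.13 (SE). A gap of 10440 bp, the longest within the island, separated it from the remaining 9 peaks.

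The second and the third peak lay 512 bp apart and had close control levels, with means of 49.6 and 49.7 CPM, and the estimated fall was larger at the third. The second, from 62764832 to 62769258, held 48.0, 52.2 and 48.7 CPM in control and 41.3, 35.6 and 33.4 CPM in knockout libraries, with a log2 fold change of -0.43 ± 0.14 (SE), the smallest of the locus. The third, from 62769771 to 62772583, held 53.9, 46.9 and 48.1 CPM in control and 28.2, 29.4 and 30.1 CPM in knockout libraries, with a log2 fold change of -0.76 ± 0.14 (SE). The third was the densest peak of the locus in control organoids, at 17.7 CPM per kb. The 95% intervals of the 2 fold changes, -0.70 to -0.17 and -1.04 to -0.48, overlapped, so the peaks were not shown to differ. The call of the second peak was lost without control replicate 2 (adjusted p = 0.0501) and without knockout replicate 3 (adjusted p = 0.0713), both by edgeR.

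The fourth peak, from 62774457 to 62775994, was the narrowest and weakest. It held 19.1, 14.4 and 24.6 CPM in control and 7.66, 14.9 and 9.30 CPM in knockout libraries, and knockout replicate 2 lay above control replicate 2. Its log2 fold change, -0.88 ± 0.26 (SE), was the most negative of the locus and also the least precise, with 44 to 172 reads per library. Without control replicate 3 the value was -0.67 and the peak was no longer called (adjusted p = 0.188, edgeR), and without knockout replicate 1 the adjusted p was 0.0515. Over all alternative fits the log2 fold change ranged from -1.20, without knockout replicate 2, to -0.67. With all libraries kept and offsets that followed the mean count, it was -1.14.

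The middle of the island held its widest peak. The sixth peak, from 62788375 to 62799931, was 11557 bp wide and wider than 96.8% of all peaks or as wide. It held 136, 152 and 126 CPM in control and 97.2, 78.4 and 91.7 CPM in knockout libraries, the highest level of the locus in both groups. Its log2 fold change, -0.63 ± 0.09 (SE), was the most precisely estimated of the 10. The fifth peak, from 62782157 to 62787563, lay 811 bp before it. It held 76.9, 81.8 and 72.5 CPM in control and 56.4, 51.2 and 51.9 CPM in knockout libraries, and its log2 fold change was -0.53 ± 0.11 (SE).

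The seventh and the eighth peak were separated by 249 bp, the shortest gap of the locus. The seventh, from 62804870 to 62810941, held 77.2, 78.3 and 89.1 CPM in control and 50.8, 61.5 and 47.0 CPM in knockout libraries, a log2 fold change of -0.62 ± 0.11 (SE). The eighth, from 62811191 to 62816300, held 91.5, 80.2 and 85.6 CPM in control and 67.0, 62.2 and 55.8 CPM in knockout libraries, a log2 fold change of -0.48 ± 0.11 (SE). The eighth kept the highest density of the locus in the knockout, 12.1 CPM per kb, which was above the control density of the tenth peak.

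The last 2 peaks closed the island. The ninth, from 62816846 to 62819440, held 43.5, 37.4 and 34.9 CPM in control and 26.8, 21.8 and 22.1 CPM in knockout libraries, a log2 fold change of -0.71 ± 0.16 (SE). The tenth, from 62823088 to 62831426, was 8339 bp wide and held 84.9, 92.7 and 85.4 CPM in control and 62.0, 68.6 and 56.4 CPM in knockout libraries. Its log2 fold change was -0.49 ± 0.10 (SE). In both peaks the highest knockout library stayed below the lowest control library.

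**Figure D2:**
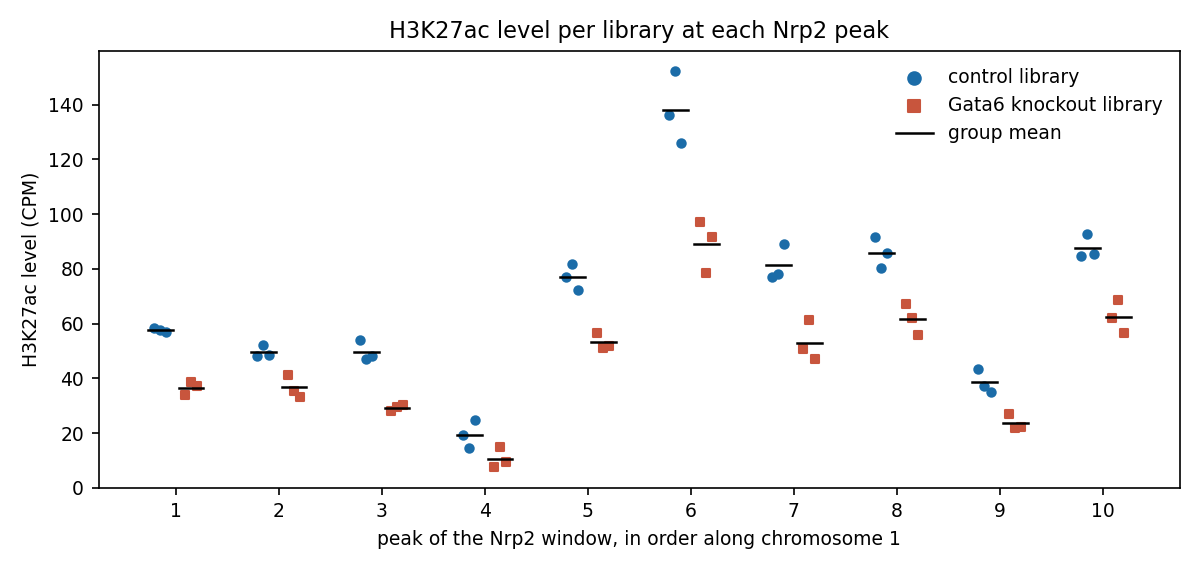
H3K27ac level (CPM) in each of the 3 control and 3 knockout libraries at the 10 Nrp2 peaks, numbered along chromosome 1, with group means as black lines. The groups overlap at peak 4 and are apart at the other 9; the sixth peak is the highest in both groups.

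The makeup of the locus changed little. The sixth peak took 20.2% ± 1.64 of the locus's acetylation in the control group (SD, n = 3) and 19.6% ± 2.26 in the knockout group (SD, n = 3), and the first peak took 8.41% ± 0.0878 and 8.04% ± 0.730. Across the 10 peaks the mean share moved by at most 0.980 percentage points, at the eighth peak, from 12.5% to 13.5%. For 0 of the 10 peaks did the 95% interval of the log2 fold change exclude the value of the whole locus, -0.59. That value is made of the same 10 peaks, so the overlap does not show that they fell alike. Across the 10 peaks, Spearman's rho of the log2 fold change was 0.212 with position, 0.600 with width, 0.491 with the control level and -0.358 with the control density. These 10 points share their libraries, and the narrow, weak peak from 62774457 carries the widest error, so the values are given as a description only.

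Libraries of a group agreed more closely on the summed level of the locus than on 9 of its 10 peaks, the exceptions being the first peak in control and the third in knockout libraries. Summing averages out part of the spread of single peaks, so closer agreement on the sum was likely beforehand. The coefficient of variation of the summed level was 1.72% in control and 4.14% in knockout libraries. For single peaks it ranged from 1.23% to 26.4% in control and from 3.34% to 35.6% in knockout libraries, with the fourth peak highest in both. The median over the 10 peaks was 7.04% in control and 10.3% in knockout libraries, against 10.9% and 11.3% over all peaks. This comparison was not matched for level, and the median control level was 67.3 CPM at the 10 peaks and 27.9 CPM over all peaks.

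The lower acetylation was not seen in the neighbouring peaks. Within 0.5 Mb of the window there were 0 peaks on the side of lower coordinates and 9 on the other side, and of these 9, 0 were called lower and 1 was called higher. Over all peaks 10.2% were called lower and 11.6% higher, so nothing is read from these counts. The median log2 fold change of the 9 was 0.11, with a range from -0.04 to 0.53, and 7 of 9 lay above 0. Summed over the 9, the level was 237 ± 6.12 CPM in the control group and 260.3 ± 17.2 CPM in the knockout group (SD over 3 libraries), and the groups overlapped slightly, with a highest control of 243.2 CPM and a lowest knockout of 242.5 CPM. These peaks lay outside the window and come from the same libraries. Whether their values entered the choice of the window is not known, so their contrast with the island is a description only.

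The peaks on either side of the island both had higher values in the knockout. The nearest on the right, from 63048975 to 63050568, held 19.0, 13.6 and 16.6 CPM in control and 23.9, 20.3 and 26.9 CPM in knockout libraries, with a log2 fold change of 0.53 ± 0.20 (SE) and an adjusted p of 0.0407 (edgeR, adjusted over all peaks). The nearest on the left, from 60667433 to 60669557, rose from 20.5 ± 1.23 to 28.4 ± 0.812 CPM (SD over 3 libraries per group), and its log2 fold change was 0.47 ± 0.18 (SE) with an adjusted p of 0.0369 by the same test. Both calls were near the threshold: they were lost in 6 and 7 of 14 alternative fits, where the largest adjusted p by edgeR was 0.211 for the right peak, without knockout replicate 3, and 0.110 for the left peak, without control replicate 2. The next peak on the right, from 63051086 to 63053622, had a log2 fold change of 0.32 ± 0.14 (SE) and was not called (adjusted p = 0.0951, edgeR).

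**Figure D3:**
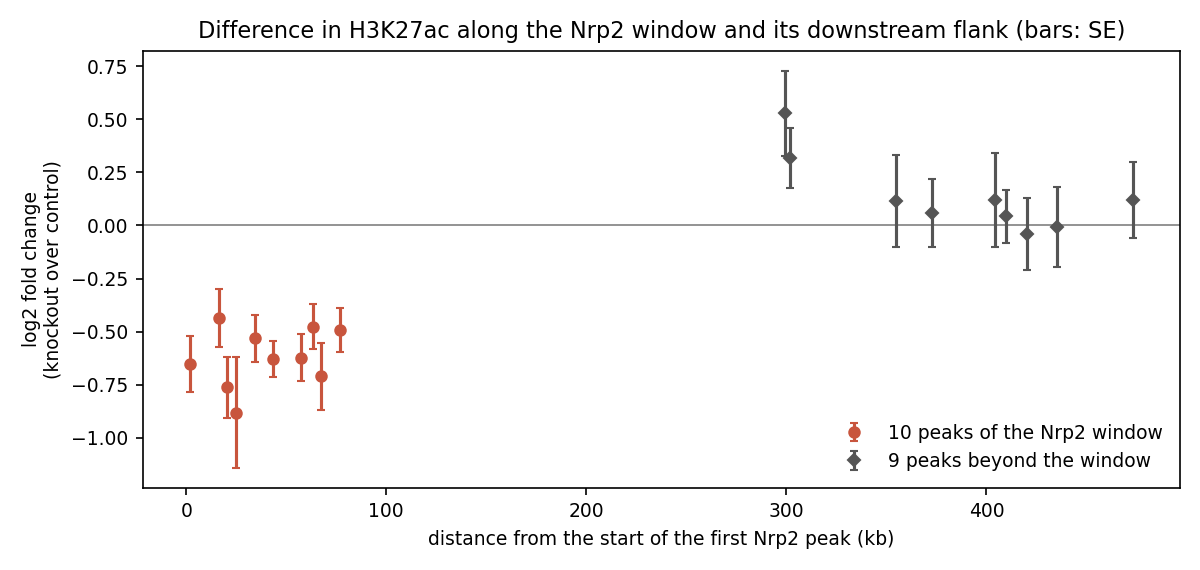
Log2 fold change of H3K27ac (knockout over control, bars are SE) against distance in kb from the start of the first Nrp2 peak, for the 10 peaks of the window and the 9 peaks beyond it. The 10 lie between -0.88 and -0.43 and the 9 between -0.04 and 0.53, with no peak in between.

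Among all peaks, 9 of the 10 at Nrp2 had a control level above the general median, the fourth lay below it, and all 10 lay on the lower side of the spread of fold changes without being its extremes. The log2 fold change was higher than that of the fourth peak at 99.2% of all peaks, and higher than that of the second peak at 92.5%. These positions are descriptions of values that entered the choice of the locus.

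**Figure D4:**
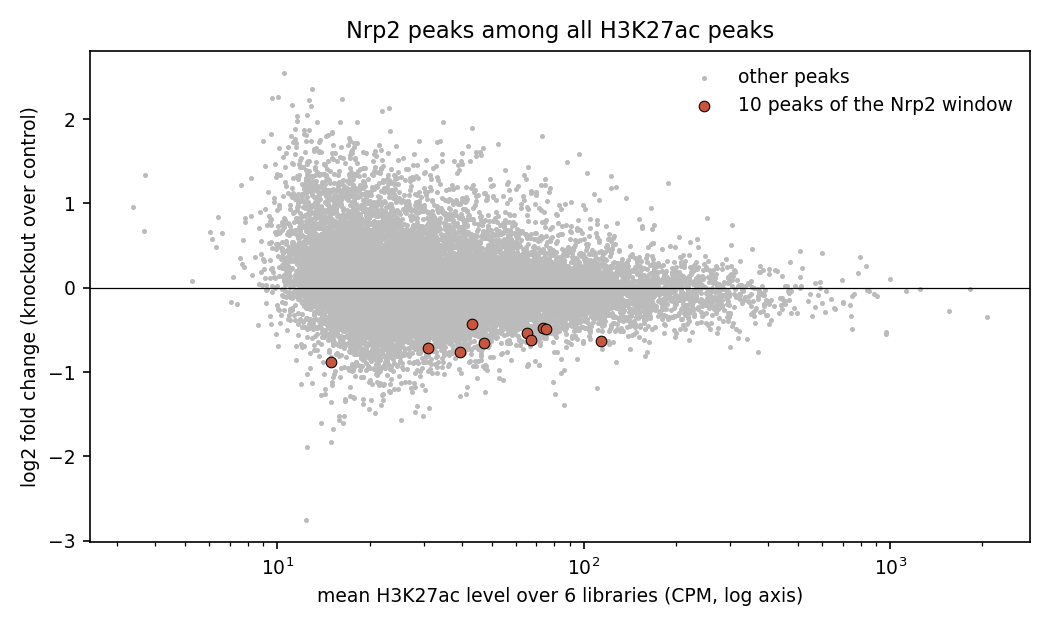
Log2 fold change (knockout over control) against the mean H3K27ac level over 6 libraries (CPM, log axis) for all 22731 peaks, with the 10 Nrp2 peaks in red. The 10 lie on the lower side of the cloud, between -0.88 at the weakest peak and -0.43 at the second peak, with -0.63 at the strongest.

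Nrp1 stood apart by having no peak to compare. In the RefSeq gene order it lies between Pard3, a cell polarity gene, and Itgb1, which encodes the integrin beta-1 chain. The nearest peaks on chromosome 8 ended at 130133001 and began at 131208872, a stretch of 1076 kb without a peak. Of the 22706 gaps between neighbouring peaks in the table, 515 were at least as long. The nearest peak, from 131208872 to 131210665 and 58.9 kb beyond the window, held 31.3, 39.0 and 38.2 CPM in control and 29.3, 33.4 and 30.5 CPM in knockout libraries. The groups overlapped, and its log2 fold change of -0.22 ± 0.15 (SE) was not called (adjusted p = 0.326, edgeR). The peak on the other side, from 130129721 to 130133001, lay 617 kb before the window and was not called either, with a log2 fold change of 0.14 ± 0.19 (SE; adjusted p = 0.689, edgeR). Reads between peaks were not counted in the table, so a level of H3K27ac at Nrp1 too low for a peak, and any difference in it between the groups, could not be measured here.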

How the data were processed

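The 6 H3K27ac libraries were analysed (3 per group) and the H3K4me3 and IgG libraries were left out. The values deposited by the authors are raw counts of reads, given for each peak of 1 shared set, with start, end and length in bp as other values. Build mm9, Bowtie, Picard, SAMtools, SEACR and bedtools are named in the submitters' processing notes, and the counting program is not given in the sources used here. Peak names ran without a gap from 1 to 22731. Between 82.8% and 88.9% of counts per library were even, as counting both mates would give, so reads are not independent fragments. Reads in peaks numbered 5141856 to 7026388 per library.

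All 22731 peaks passed edgeR's filter and were fitted together in edgeR 4.0.16 (R 4.3.3): TMM, group as the only term, quasi-likelihood test, two-sided, Benjamini-Hochberg adjustment. This scaling hides any change common to every peak. SEs came from the F statistic, 95% intervals from the SE and the normal distribution. The fit was tested on simulated data. Members, windows and tests were chosen with earlier results of these data known. All 10 peaks were described. Whether replicates were separate cultures is not labelled, so p-values may measure technical spread. On halved counts, libraries of a group differed by a chi-square of 1.53 to 1.84 per degree of freedom, so none looked copied. Alternatives included DESeq2 1.42.0, other scalings and left-out libraries. A list of semaphorins, plexins and VEGF genes could not be counted, since no mm9 gene positions were used.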

Additional observations from a re-analysis of the deposited data

How the results depend on the processing

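The count of Nrp2 peaks called lower was 9 to 10 under 11 alternatives that kept all libraries (other size factors, reads in peaks alone, trended offsets with a loess span of 0.3, DESeq2, no filter, halved counts, chromosome 5 left out, a replicate block, adjusted p under 0.01 and 2 other window rules) and 9 to 10 with each library left out. The log2 ratio of the summed level was -0.61 to -0.55 in both sets, in the fits that change it. At an adjusted p under 0.01, 1478 peaks of the whole table were called lower in place of 2320, and 9 at Nrp2. With the window extended by 0.1 Mb, 1 Nrp2 peak was called higher in place of 0, the neighbour at 63048975; the Nrp1 window then held 1 peak, which was not called. Of 140 values of the 10 peaks under 14 alternative fits, 136 kept their call, 4 lost it (the second and the fourth peak, without single libraries) and 0 reversed, which the choice of the locus made likely. Same-numbered libraries correlated at 0.00591 to 0.0668 in their deviations, and differently numbered ones at -0.0489 to 0.0403. The highest value was that of control replicate 3 with knockout replicate 3. All values were small, and the numbers were not taken as pairs. With the replicate block 10 Nrp2 peaks were called lower, and 2409 over all peaks in place of 2320. The number of libraries, and reads at the fourth peak, limit the precision.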
